A study of Mus musculus with 32 samples.

Results

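The imprinted growth genes described here are 10 of the 31053 genes in the deposited tables: H19, Igf2, Dlk1, Meg3, Peg3, Cdkn1c, Grb10, Mest, Plagl1 and Ndn. They were chosen by symbol as imprinted genes with roles in growth, by a rule that uses no measured value though earlier results of these data were known, and their counts in single cells were compared across mesenchymal cell types and across pools of mice.

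The cells were BMSC-OBs, bone marrow stromal cells from the femurs of Diversity Outbred (DO) mice, an outbred stock bred from several inbred founder strains, that were cultured in osteogenic medium with ascorbic acid, β-glycerophosphate and dexamethasone before single-cell RNA sequencing. Cells of 77 mice were combined into 16 pools of 4 or 5 mice, and each pool was one droplet library. All pools had the same culture and no treatment, so no condition was compared between pools, and the age of the mice is not given in the labels. The cells of a pool were not separated by mouse here, which makes the pool the replicate and a value of a pool a mixture over its 4 or 5 mice. The libraries read the 3′ ends of polyadenylated RNA without telling the parental alleles apart in these tables, so a level is the sum over both alleles.

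Imprinted genes are expressed mostly from the copy inherited from one parent, under the control of DNA methylation set in the germ line. H19 and Igf2 share an imprinting control region and enhancers, with the RNA gene H19 expressed from the maternal and the growth factor gene Igf2 from the paternal copy. Dlk1, a paternally expressed transmembrane inhibitor of adipogenesis, and Meg3, a maternally expressed long noncoding RNA, form a similar pair. Many genes of this kind are high in the embryo and in early postnatal tissue and low afterwards. Paternally expressed Peg3, Mest, Plagl1 and Ndn code for a zinc finger protein, a hydrolase-fold protein, a zinc finger transcription factor and the MAGE family protein necdin. Maternally expressed Cdkn1c and Grb10 code for the cyclin-dependent kinase inhibitor p57 and for an adaptor protein that restrains insulin and IGF1 receptor signalling.

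In the GRCm38 build with GENCODE M21 annotation, 5 of these genes lie on chromosome 7. H19 at chr7:142575529-142578143 and Igf2 at chr7:142650766-142666816 are neighbours on the minus strand, Cdkn1c at chr7:143458339-143461050 lies further along on the same strand, and Peg3 at chr7:6703892-6730431 lies far from them. Ndn occupies chr7:62346569-62350262 on the plus strand. Dlk1 at chr12:109452823-109463336 and Meg3 at chr12:109541001-109571726 are neighbours on the plus strand of chromosome 12. Grb10 lies at chr11:11930508-12038683 on the minus strand, Mest at chr6:30723547-30748465 on the plus strand and Plagl1 at chr10:13060504-13131694 on the plus strand. The annotated gene Gm49394 overlaps Igf2 on the same strand. Reads shared by both genes cannot be assigned to either if the annotation behind the counts also holds Gm49394. That was not checked, so counts of Igf2 are uncertain.

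Of the 10 genes, 4 hold annotated microRNAs that are cut from the host transcript or its intron: H19, Igf2, Meg3 and Mest. The 9 mature sequences are shown because the level of a host is the nearest these libraries come to the small RNAs, which were not measured. The letters are RefSeq's on GRCm38.p6, 5′ to 3′, with the seed (bases 2 to 8) in capitals. The mature miR-675 forms lie in an exon of H19 (3p at chr7:142577078-142577099, 5p at chr7:142577112-142577133):
miR-675-5p: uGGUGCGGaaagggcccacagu
miR-675-3p: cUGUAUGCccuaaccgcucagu
The miR-483 forms lie in an intron of Igf2 (3p at chr7:142654932-142654952, 5p at chr7:142654968-142654989):
miR-483-5p: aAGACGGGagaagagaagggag
miR-483-3p: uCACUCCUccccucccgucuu
The Meg3 exons hold miR-1906 (chr12:109544588-109544609) and the miR-770 forms (5p at chr12:109563710-109563731, 3p at chr12:109563744-109563765):
miR-1906: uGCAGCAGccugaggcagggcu
miR-770-5p: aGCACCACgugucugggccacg
miR-770-3p: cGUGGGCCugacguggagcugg
The miR-335 forms lie in an intron of Mest (5p at chr6:30741314-30741336, 3p at chr6:30741354-30741375):
miR-335-5p: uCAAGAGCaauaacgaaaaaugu
miR-335-3p: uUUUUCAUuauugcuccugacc
No seed was shared between any of the 9.

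Promoter windows, the 250 bases before an annotated start, were at hand from RefSeq (GRCm38.p6) for 8 of the 10 genes in 15 windows, without H19 and Cdkn1c. Windows of Peg3 and Meg3, whose transcripts moved in opposite directions from LMP-like to OBP-like cells, and of Mest and Plagl1, which did so between MALP-like and LMP-like cells, are given in full. Capitals mark matches, on either strand, to GGGCGG (reverse complement CCGCCC), to TGACGTC (reverse complement GACGTCA, which overlaps it where both are present) or to TATAAA (reverse complement TTTATA, likewise).
Peg3, chr7:6730420-6730669, minus strand: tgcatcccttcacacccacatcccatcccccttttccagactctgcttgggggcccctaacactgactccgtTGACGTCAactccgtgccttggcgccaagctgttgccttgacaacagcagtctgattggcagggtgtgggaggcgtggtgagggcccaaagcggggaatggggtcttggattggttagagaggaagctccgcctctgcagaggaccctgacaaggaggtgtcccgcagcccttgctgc
Meg3, chr12:109540746-109540995, plus strand: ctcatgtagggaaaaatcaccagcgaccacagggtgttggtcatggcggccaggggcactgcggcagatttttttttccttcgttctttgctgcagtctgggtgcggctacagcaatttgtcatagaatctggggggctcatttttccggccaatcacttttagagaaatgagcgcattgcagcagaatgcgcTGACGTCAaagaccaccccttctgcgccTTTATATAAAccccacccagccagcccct
Mest, chr6:30737800-30738049, plus strand: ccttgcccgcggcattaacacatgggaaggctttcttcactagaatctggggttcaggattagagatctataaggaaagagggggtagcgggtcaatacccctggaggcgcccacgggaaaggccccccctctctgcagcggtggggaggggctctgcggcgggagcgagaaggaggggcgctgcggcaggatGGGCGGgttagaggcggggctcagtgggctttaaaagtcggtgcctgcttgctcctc
Plagl1, chr10:13090582-13090831, plus strand: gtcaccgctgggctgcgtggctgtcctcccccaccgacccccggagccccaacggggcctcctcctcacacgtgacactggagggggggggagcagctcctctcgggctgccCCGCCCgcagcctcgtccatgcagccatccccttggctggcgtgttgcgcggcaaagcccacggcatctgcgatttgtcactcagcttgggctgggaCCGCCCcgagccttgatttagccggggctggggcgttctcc
TGACGTC or its complement stood in 3 of the 15 member windows, those shown of Peg3 and Meg3 and 1 of Grb10, and in 2.78% of all 32851 windows of this length. GGGCGG stood in 7 of the 15, against 32.7% of all windows, and TATAAA in 1, that of Meg3, against 12.4%. These are letter matches, several windows belong to the same gene, and 3′ libraries do not show which start a transcript used.

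Cell types were set by marker genes that include none of the 10. After filters 83906 cells of 16 pools remained, 60632 of them with at least 3000 UMIs (unique molecular identifiers, counted molecules), and 43495 passed the collagen-based mesenchymal gate. Of these, 26454 were placed in a class by the marker set that stood furthest above the others: 6744 cells were like late mesenchymal progenitors (LMP-like, led by smooth muscle genes such as Acta2 and Tagln), 4431 like osteoblast progenitors (OBP-like, Alpl, Sp7), 5135 like osteoblasts (OB-like, Bglap, Ibsp), 4934 like osteocytes (Ocy-like, Dmp1, Phex) and 5210 like marrow adipogenic lineage precursors (MALP-like, Lpl, Cxcl12). A class cut from such a score is a range and not a sealed type, and 4842 of the 43495 cells lay within 0.1 of a threshold of the score. Each pool held 53990642 to 100777353 UMIs in all. The cells of pool 13 were the shallowest, with a median of 2782 UMIs per kept cell against 10319 for the median pool, and leaving that pool out ended no call of a member. Between 3 and 28 barcodes were shared by any pair of pools. Markers of leukocytes summed to 0.253 to 1.65 UMIs per 10,000 over all classes and pools.

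H19 and Grb10 gave most of the UMIs of the set: 73898 and 60256 of them lay in the 26454 classed cells, followed by Plagl1 (17747), Mest (11036), Ndn (9659), Cdkn1c (8597), Peg3 (4587), Meg3 (2353), Igf2 (713) and Dlk1 (84). Levels below are UMIs of the gene per 10,000 UMIs of the class in a pool, and each mean is over 16 pools unless another number is given. By mean level, MALP-like cells ranked first for H19, Igf2, Cdkn1c, Plagl1 and Ndn, LMP-like cells for Meg3, Grb10 and Mest, and OB-like cells for Peg3.

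**Figure D1:**
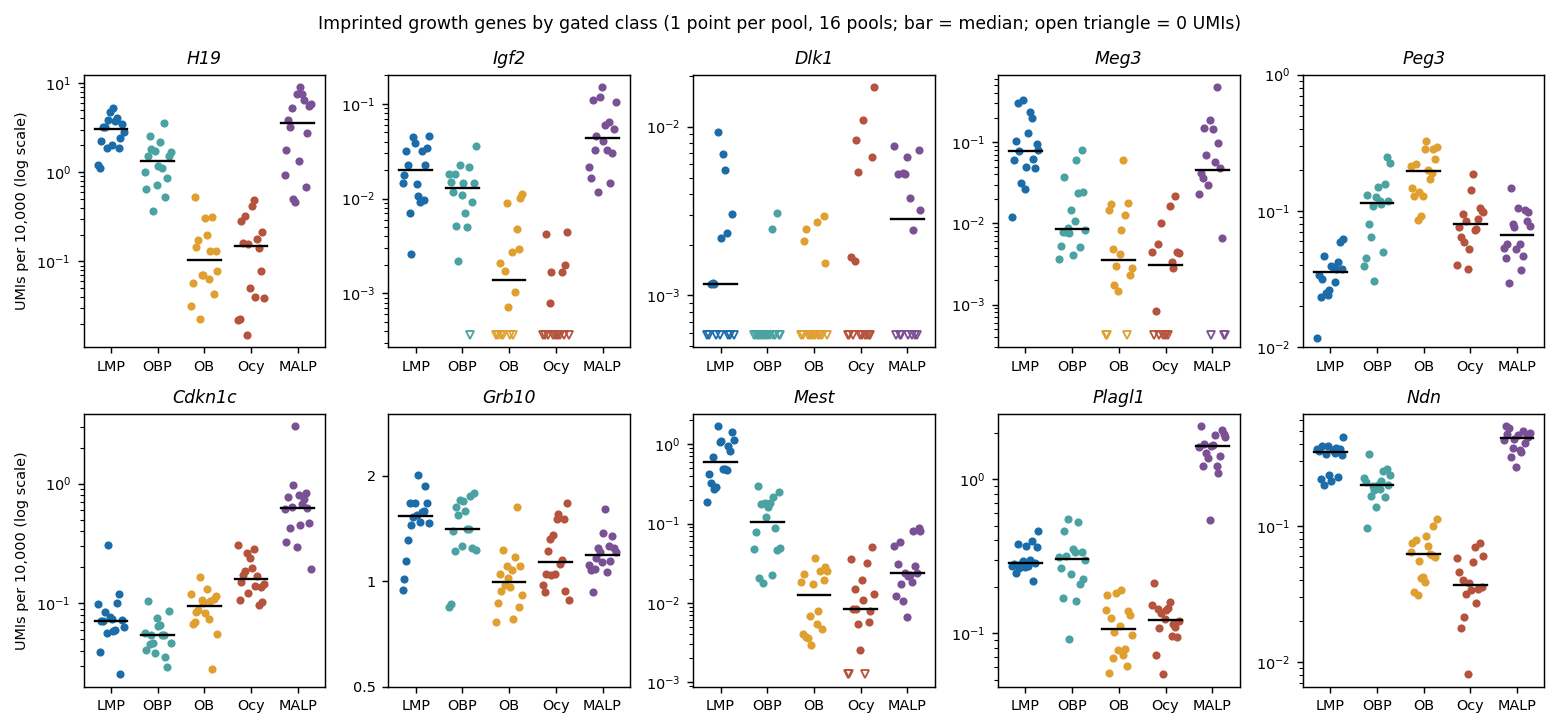
Level of the 10 genes (UMIs per 10,000, log axes, each with its own range) in the 5 marker-gated classes, with 1 point for each of the 16 pools, a bar for their median and open triangles for pools with 0 UMIs. H19, Mest and Ndn sit lowest in OB-like and Ocy-like cells, Peg3 highest in OB-like cells and Plagl1 and Cdkn1c highest in MALP-like cells.

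Classes were compared in 4 steps, and cells within the LMP-like class in 1 more, on UMIs summed per pool, with edgeR's quasi-likelihood test and the pool in the model. Large shares of all genes differed at each step, so a call of 1 gene is common here. From LMP-like to OBP-like cells 60.5% of 11436 genes were called (28.9% higher, 31.6% lower); of the 8 members with enough UMIs 1 was higher and 4 were lower, with a median log2 fold change of -0.45 against -0.0089 over all genes. From OBP-like to OB-like cells 63.7% of 10675 genes were called (31.6% higher, 32.1% lower), and of 7 members 2 were higher and 4 lower (median -1.08 against -0.014). From OB-like to Ocy-like cells 51.4% of 10642 genes were called (25.9% higher, 25.6% lower), and of 6 members 2 were higher and 2 lower (median 0.11 against 0.0027). Between MALP-like and LMP-like cells 73.7% of 11502 genes were called (37.1% higher, 36.5% lower), and of 9 members 4 were higher in MALP-like cells and 3 lower (median 0.13 against 0.013). Beside these backgrounds, how many members were called is no result about the set, and the values of each gene are what follows. How many of all genes had pools that did not overlap between classes was not counted, so such a separation is no result about a member either. In these fits Dlk1 passed the filter on low counts at no step and Igf2 only between MALP-like and LMP-like cells.

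**Figure D2:**
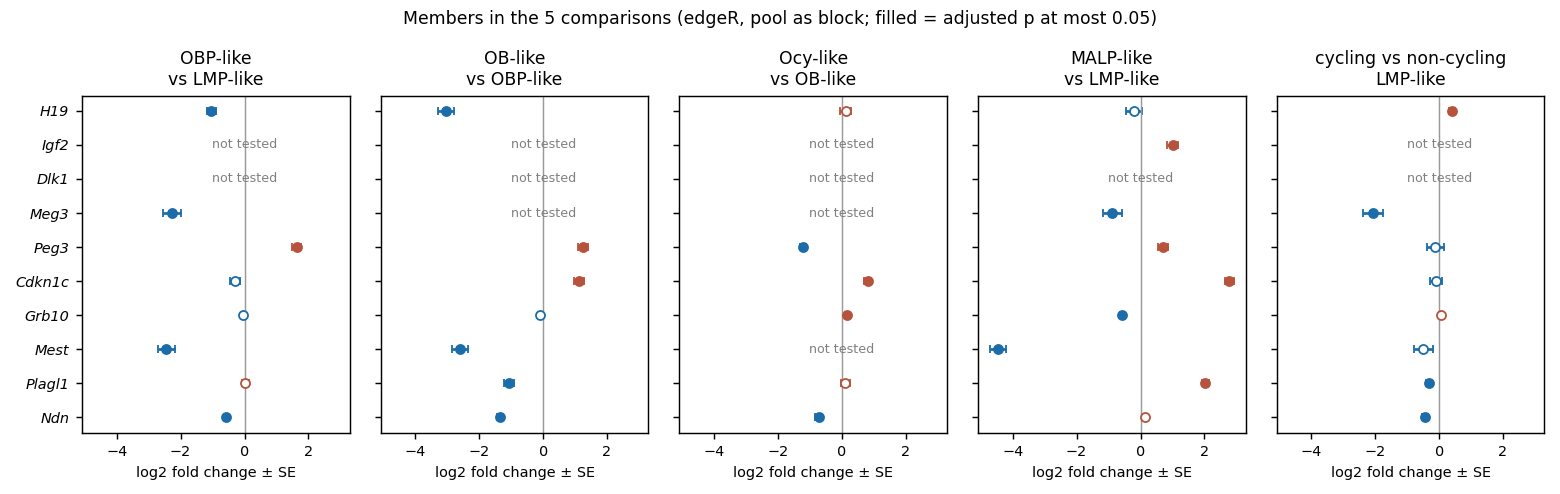
Log2 fold change (horizontal axis) of each member that could be tested, by comparison, with bars of 1 standard error and filled points for an adjusted p of at most 0.05. Mest was lower by 4.47 in MALP-like than in LMP-like cells, while Plagl1 was higher by 2.02 there. The MALP-like mean of Mest was 0.0361, beside 0.0188 in leukocyte-marked cells, so 4.47 is not an exact fold. Cdkn1c stands at 2.77 in the same comparison, against an LMP-like level that was no higher than in leukocyte-marked cells.

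Several of these differences move with the scaling. Fold changes are relative to the trimmed mean of all genes (TMM), and plain scaling to the library size put the median of all genes at -0.38 between OB-like and OBP-like cells and at 0.30 between MALP-like and LMP-like cells, against -0.014 and 0.013 with TMM. Results whose call or direction turned with it are named where they stand.

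H19, the noncoding RNA, was high in progenitor-like and MALP-like cells and low in OB-like and Ocy-like cells. Its level over pools ran from 1.11 to 5.19 (median 3.01) in LMP-like, 0.368 to 3.55 (1.34) in OBP-like, 0.0225 to 0.526 (0.104) in OB-like, 0.0150 to 0.488 (0.149) in Ocy-like and 0.458 to 9.01 (3.57) in MALP-like cells. Every pool fell from LMP-like to OBP-like and again from OBP-like to OB-like cells, although the ranges of neighbouring classes overlapped. The first step was a log2 fold change of -1.04 ± 0.15 (SE; adjusted p = 3.6e-06) and the second -3.05 ± 0.24 (adjusted p = 2.3e-10). The OB-like mean, 0.148, was close to the level in leukocyte-marked cells (0.0917), so the second value is not an exact fold. Between OB-like and Ocy-like cells the difference was 0.12 ± 0.17 (adjusted p = 0.58), with 8 pools higher and 8 lower. MALP-like cells (3.91 ± 2.86, SD) and LMP-like cells (2.93 ± 1.20) were not called different: the log2 fold change was -0.20 ± 0.25 (adjusted p = 0.49) on the TMM scale and 0.084 with library-size scaling, and 11 of 16 pools were higher per 10,000 in MALP-like cells.

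Igf2, the fetal growth factor next to H19, was sparse. Its level was 0.0569 ± 0.0423 in MALP-like, 0.0223 ± 0.0138 in LMP-like and 0.0133 ± 0.00903 in OBP-like cells, and 29 UMIs in OB-like and 11 UMIs in Ocy-like cells made up the whole count there, with no UMI in 6 and 10 of the 16 pools. Of the class means its order was the same as that of H19 except for the lowest pair. Igf2 was higher in MALP-like than in LMP-like cells in 15 of 16 pools, by 1.01 ± 0.18 on the log2 scale (adjusted p = 2.5e-05). The pools overlapped, with 0.0117 to 0.151 in MALP-like and 0.00263 to 0.0454 in LMP-like cells. From LMP-like to OBP-like cells Igf2 was lower in 14 of 16 pools but fell under the low-count filter. In the 6 refits with 1 pool left out (5, 6, 9, 10, 11 or 13) where it passed, it was called lower, with log2 fold changes of -0.61 to -0.55 (adjusted p from 0.0039 to 0.0070). It was also called lower without that filter (-0.61, adjusted p = 0.0063) and with doublets kept (-0.62, adjusted p = 0.00060), and not in 1 fit over 5 classes (-0.49, adjusted p = 0.068). From OBP-like to OB-like cells it was lower in 15 of 16 pools, and was called in 1 fit over 5 classes (-2.18, adjusted p = 1.6e-07) and without the filter (-1.99, adjusted p = 5.3e-06). The OB-like mean was 0.00289, beside 0.00125 in leukocyte-marked cells, so neither value is an exact fold.

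Meg3 and Dlk1, the chromosome 12 pair, were rare. Dlk1, known as a marker of preadipocytes, had 145 UMIs in 98 of 83906 cells, and of the classed cells LMP-like held 32 UMIs, OBP-like 3, OB-like 9, Ocy-like 21 and MALP-like 19. Between 7 and 14 pools had none in a class, and no difference was detectable at this depth. Meg3 ran from 0.0118 to 0.332 over pools in LMP-like cells (median 0.0786) and from 0 to 0.477 (median 0.0449) in MALP-like cells. These levels came from few cells: 258 of 6744 LMP-like cells held all 1620 UMIs, 6.28 per cell with any. Meg3 fell by 2.28 ± 0.28 on the log2 scale from LMP-like to OBP-like cells (adjusted p = 3.9e-07; lower in 15 of 16 pools), and OB-like and Ocy-like means were 0.00946 and 0.00463. The OB-like mean rests on pool 11, at 0.0607, while the other 15 pools lay between 0 and 0.0178 and the median was 0.00358. Without the low-count filter Meg3 was also called lower in OB-like than in OBP-like cells (-0.81, adjusted p = 0.0081; 13 of 16 pools) and in Ocy-like than in OB-like cells (-1.17, adjusted p = 0.0045; 9 of 16 pools). In Ocy-like cells Meg3 was close to its level in leukocyte-marked cells (0.00374), so the last value is not an exact fold. Against LMP-like cells it was lower in MALP-like cells by 0.88 ± 0.30 (adjusted p = 0.012; 13 of 16 pools), a call that was lost with library-size scaling (adjusted p = 0.072) and without the pool term (adjusted p = 0.19).

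Mest, also called Peg1, was highest in LMP-like cells and low in the others. Its pools spanned 0.186 to 1.68 (median 0.592) in LMP-like cells, 0.0178 to 0.294 (0.103) in OBP-like, 0.00297 to 0.0367 (0.0127) in OB-like, 0 to 0.0508 (0.00832) in Ocy-like and 0.00657 to 0.0874 (0.0238) in MALP-like cells. All 16 pools fell at each of the first 2 osteogenic steps, by 2.45 ± 0.27 and by 2.60 ± 0.26 on the log2 scale (adjusted p = 7.0e-08 and 1.1e-08). The level in OB-like cells, 0.0145, was no higher than in leukocyte-marked cells (0.0188), where free RNA can give UMIs, so the second value is not an exact fold. Under the stricter gate Mest had too few UMIs to be tested at the second step. MALP-like and LMP-like pools did not overlap, with a log2 fold change of -4.47 ± 0.24 (adjusted p = 2.8e-13). The MALP-like mean was 0.0361, beside 0.0188 in leukocyte-marked cells, so this value is not an exact fold either. Copg2, which lies on the opposite strand, overlaps the 3′ end of Mest.

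Ndn fell along the osteogenic classes and overlapped in range between MALP-like and LMP-like cells. Its levels were 0.322 ± 0.0754 in LMP-like, 0.204 ± 0.0544 in OBP-like, 0.0631 ± 0.0233 in OB-like, 0.0406 ± 0.0187 in Ocy-like and 0.426 ± 0.0753 in MALP-like cells. The 3 osteogenic steps gave log2 fold changes of -0.59 ± 0.062, -1.36 ± 0.096 and -0.73 ± 0.11 (adjusted p = 3.8e-08, 4.2e-11 and 6.9e-06), and all 16 pools fell at each. Against LMP-like cells MALP-like cells differed by 0.13 ± 0.077 (adjusted p = 0.14) on the TMM scale. With library-size scaling the difference was 0.41 and called (adjusted p = 7.7e-05), and without pool 6 it was 0.19 and called (adjusted p = 0.030), with 15 of 16 pools higher per 10,000.

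Peg3 ran the other way, rising toward OB-like cells and then falling. Its pools lay at 0.0118 to 0.0621 (median 0.0357) in LMP-like, 0.0305 to 0.249 (0.115) in OBP-like, 0.0860 to 0.328 (0.195) in OB-like, 0.0379 to 0.186 (0.0804) in Ocy-like and 0.0295 to 0.148 (0.0666) in MALP-like cells. No OB-like pool reached down to the LMP-like pools. Peg3 rose by 1.63 ± 0.15 on the log2 scale from LMP-like to OBP-like cells in 16 of 16 pools (adjusted p = 3.1e-09), rose by 1.26 ± 0.16 to OB-like cells in 15 (adjusted p = 3.5e-07), and fell by 1.21 ± 0.090 to Ocy-like cells in all 16 (adjusted p = 1.5e-10). OBP-like and Ocy-like cells were not called different (log2 fold change 0.058 ± 0.16, adjusted p = 0.76). MALP-like cells were above LMP-like cells by 0.70 ± 0.15 (adjusted p = 0.00023).

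Cdkn1c, the gene of the cell cycle inhibitor p57, was highest in MALP-like cells, where pools ran from 0.193 to 3.02 with a median of 0.630 and pool 7 on top. Medians elsewhere were 0.160 in Ocy-like, 0.0943 in OB-like, 0.0715 in LMP-like and 0.0542 in OBP-like cells. It was higher in MALP-like than in LMP-like cells in all 16 pools (log2 fold change 2.77 ± 0.14, adjusted p = 7.6e-14). The LMP-like and OB-like means (0.0862 and 0.0940) were no higher than the level in leukocyte-marked cells (0.0949), where free RNA can give UMIs, so fold changes against either class are not exact folds. Whether leukocyte-marked cells make Cdkn1c themselves was not tested. Along the osteogenic classes it rose by 1.11 ± 0.15 from OBP-like to OB-like cells (adjusted p = 9.7e-07; 14 of 16 pools) and by a further 0.81 ± 0.10 to Ocy-like cells (adjusted p = 7.3e-07; 15 of 16 pools). The first step, from LMP-like to OBP-like cells, was -0.31 ± 0.16 (adjusted p = 0.099), and it was called with library-size scaling (-0.37, adjusted p = 0.049), in run HHFFMCCX2 (-0.36, adjusted p = 0.040), with doublets kept (-0.33, adjusted p = 0.047) and without the low-count filter (-0.35, adjusted p = 0.035). An antisense gene, Gm44732, overlaps Cdkn1c.

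Grb10 per 10,000 UMIs was at 1.49 ± 0.284 in LMP-like, 1.41 ± 0.290 in OBP-like, 1.03 ± 0.209 in OB-like, 1.20 ± 0.250 in Ocy-like and 1.20 ± 0.156 in MALP-like cells, with pools of all classes overlapping. On the TMM scale MALP-like cells were lowest instead. OBP-like, OB-like and Ocy-like cells stood above them by 0.56 ± 0.083, 0.49 ± 0.069 and 0.63 ± 0.075 in log2 (adjusted p = 3.3e-06, 1.1e-06 and 1.1e-07). The order of OB-like and MALP-like cells thus differed between the scales. On the TMM scale the steps from LMP-like to OBP-like (-0.033 ± 0.058, adjusted p = 0.64) and from OBP-like to OB-like cells (-0.088 ± 0.063, adjusted p = 0.23) were not called. With library-size scaling the latter was -0.45 and called (adjusted p = 3.6e-07), and 15 of 16 pools were lower per 10,000 in OB-like cells. The rise to Ocy-like cells was 0.15 ± 0.055 (adjusted p = 0.023), and this call was lost without pool 9, 10, 11 or 17, without the pool term (adjusted p = 0.23) and in 1 fit over the 5 classes. Grb10 was lower in MALP-like than in LMP-like cells by 0.58 ± 0.057 (adjusted p = 6.0e-09; 14 of 16 pools), and by 0.30 with library-size scaling (adjusted p = 3.1e-05).

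Plagl1, the transcription factor gene known for activating other imprinted genes, was highest in MALP-like cells. Its pools ran from 0.545 to 2.21 (median 1.64) in MALP-like, from 0.217 to 0.458 (0.285) in LMP-like, from 0.0915 to 0.553 (0.304) in OBP-like, from 0.0556 to 0.191 (0.107) in OB-like and from 0.0541 to 0.213 (0.122) in Ocy-like cells. The lowest MALP-like pool was thus above all LMP-like, OB-like and Ocy-like pools and just under the highest OBP-like pool. Against LMP-like cells the log2 fold change was 2.02 ± 0.11 (adjusted p = 5.4e-13). Plagl1 fell by 1.08 ± 0.16 from OBP-like to OB-like cells (adjusted p = 5.6e-06; 15 of 16 pools) and was not called different between LMP-like and OBP-like cells (0.022 ± 0.11, adjusted p = 0.89; -0.037 with library-size scaling) or between OB-like and Ocy-like cells (0.10 ± 0.14, adjusted p = 0.54). Under a stricter gate it was called higher in OBP-like than in LMP-like cells (log2 fold change 0.48, adjusted p = 0.00058).

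Within LMP-like cells, cycling cells (at least 5 UMIs per 10,000 of mitosis markers) were set against non-cycling cells (under 1) in the 15 pools with enough of both. Pool 7, which was left out, had the highest LMP-like levels of Cdkn1c (0.308), Mest (1.68) and Meg3 (0.332). Here 48.7% of 10358 genes were called (24.0% higher, 24.7% lower), and of 8 members 1 was higher and 3 were lower in cycling cells (median -0.22 against -0.024). H19 was 3.83 ± 2.07 in cycling and 2.78 ± 1.25 in non-cycling cells, higher in 12 of 15 pools (log2 fold change 0.40 ± 0.089, adjusted p = 0.00055). Meg3 was lower, at 0.0282 ± 0.0401 against 0.121 ± 0.104 (log2 fold change -2.09 ± 0.31, adjusted p = 3.7e-06; lower in 13 of 15 pools). Plagl1 and Ndn were lower by 0.32 and 0.46 on the log2 scale (adjusted p = 0.0075 and 0.00023). The calls of H19 and Plagl1 were lost without the pool term (adjusted p = 0.17 and 0.11), and that of Plagl1 also under the stricter gate (-0.21, adjusted p = 0.15). Mest, at 0.480 ± 0.364 against 0.732 ± 0.443, was not called (log2 fold change -0.50 ± 0.30, adjusted p = 0.18), though it was without pool 6 (-0.74, adjusted p = 0.021), without the low-count filter (-0.55, adjusted p = 0.015) and with at least 50 cells per pool (-0.77, adjusted p = 0.0029). Cdkn1c, whose product blocks cell cycle entry, stood at 0.0741 ± 0.0450 in cycling and 0.0729 ± 0.0260 in non-cycling cells and was not called. Both values lay under its level in leukocyte-marked cells (0.0949).

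Shares of cells with at least 1 UMI were compared after each cell was thinned to 3000 UMIs, since LMP-like cells had a median of 19606.5 UMIs and MALP-like cells 9583.5. Grb10 was found in 35.8% ± 5.45 of LMP-like cells (87.5% unthinned) and in 30.4% ± 2.61 of MALP-like cells (66.7% unthinned). Plagl1 was found in 31.2% ± 6.84 of MALP-like cells against 9.06% ± 1.62 of LMP-like cells (56.5% and 32.4% unthinned). Free RNA can give UMIs in cells that do not make a gene, so leukocyte-marked cells, with a median of 5974 UMIs, were used as a floor. This floor is per UMI, while every class was deeper than leukocyte-marked cells. Those cells had no upper limit on the collagen genes of the gate. There the thinned shares were 3.48% for Grb10, 2.38% for H19, 2.01% for Cdkn1c, 0.985% for Plagl1, 0.478% for Mest, 0.368% for Ndn and 0.234% for Peg3. For Meg3, Igf2 and Dlk1 they were 0.0816%, 0.0389% and 0.0114%. H19 in OB-like (2.92%) and Ocy-like cells (3.17%) was close to its floor in the mean share. Unthinned, OB-like and Ocy-like cells with H19 held 3.20 and 3.70 UMIs each, and single cells reached 85.1 and 68.1 per 10,000. In leukocyte-marked cells 736 H19 UMIs lay in 467 of 10978 cells. Against this, 1762 lay in 551 of 5135 OB-like and 1693 in 458 of 4934 Ocy-like cells. Mest in OB-like (0.395%) and Ocy-like cells (0.375%) was below the share in leukocyte-marked cells. Whether the Mest UMIs of both classes are background was not tested. Both classes were deeper than leukocyte-marked cells, with medians of 20909 and 16308.5 UMIs. Cdkn1c in LMP-like (2.55%), OBP-like (1.76%) and OB-like cells (2.51%) was near or below its floor in the thinned share. Its mean levels there, 0.0862, 0.0562 and 0.0940 UMIs per 10,000, were no higher than 0.0949 in leukocyte-marked cells. Its rise from OBP-like to OB-like cells thus lies at that level per 10,000. Over whole cells, 1063 UMIs lay in 6744 LMP-like, 435 in 4431 OBP-like and 1070 in 5135 OB-like cells, against 761 in 10978 leukocyte-marked cells. The part of free RNA in these counts was not tested. Leukocyte-marked cells held 761 of the 13882 Cdkn1c UMIs of all kept cells, against 736 of 124608 for H19 and 936 of 113574 for Grb10. Whether they make Cdkn1c themselves was not tested, so their value may not be a floor for this gene. The level of H19 there was 0.0917.

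Endothelial-marked and glial-marked cells were few. In 124 endothelial-marked cells, taken over all pools, Mest was at 2.39 UMIs per 10,000 (exact Poisson 95% interval 2.17 to 2.63, which covers counting error only), above its highest LMP-like pool. Grb10 stood at 1.15 there, Ndn at 0.423, H19 at 0.318 and Peg3 at 0.295. In 69 glial-marked cells Grb10 was at 1.21, Meg3 at 0.294 and Peg3 at 0.277.

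High levels of H19 lay in a small share of the cells of a class. The 10% of LMP-like cells with the highest levels held 80.8% ± 7.12 of the summed H19 level of a pool, against 28.1% ± 2.18 for Grb10. This share is high for any gene seen in few cells, and it was 100% for Meg3, 99.9% for Peg3, 97.0% for Cdkn1c, 89.5% for Mest, 64.9% for Plagl1 and 48.1% for Ndn, so it is not particular to H19. A level of at least 10 UMIs per 10,000 was reached by 3.90% to 19.4% of LMP-like cells over pools (median 9.70%) and by 1.00% to 21.4% of MALP-like cells. Over bins of the summed level of the 6 collagen and matrix gate genes, H19 in LMP-like cells was 3.16 ± 2.09 at 15 to 60 UMIs per 10,000 (15 pools), 4.39 ± 2.43 at 60 to 100, 2.82 ± 1.13 at 100 to 300 and 1.64 ± 0.826 at 300 or more (14 pools). In MALP-like cells it was 2.58 ± 2.11 at 15 to 60 and 6.54 ± 5.82 at 60 to 100. The order over bins was thus not a simple one.

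Cells with H19 of at least 10 per 10,000 were then set beside cells of the same class and pool with no H19 UMI, a split chosen after the values were seen and given as a description without a test. In LMP-like cells (758 against 4107 cells, 16 pools), the H19-high cells had more Igf2 in 16 of 16 pools, 0.116 ± 0.0749 against 0.00986 ± 0.00653. Plagl1 (0.740 against 0.246) and Grb10 (2.10 against 1.33) were higher in 15 of 16 pools. Meg3 was lower in 15 of 16 (0.0392 against 0.140, from 69 and 1187 UMIs in all), but in 9 of those 15 pools the few H19-high cells held no Meg3 UMI, so the count rests largely on zeros at low depth. Ndn was higher in 7 and lower in 9. Mest was higher in 10 (1.37 against 0.540) and Cdkn1c in 11 (0.106 against 0.0849). The H19-high cells were shallower, with a median of 13850.5 UMIs against 20665. In MALP-like cells (14 pools with at least 10 cells of both kinds), Igf2 (0.231 against 0.0273), Mest (0.170 against 0.0210) and Plagl1 (2.49 against 1.51) were higher in 13 of 14 pools, while Peg3 was lower in 12 (0.0369 against 0.0730) and Cdkn1c in 11 (0.300 against 0.599). Meg3 was higher in 4 and lower in 7 of those 14 pools (0.0506 against 0.0747). In OBP-like cells (10 pools), Igf2, Plagl1 and Grb10 were higher in 9, Mest in 8 and Cdkn1c in 7 (0.119 against 0.0546). The H19-high and H19-zero cells of this class also stood apart in the summed level of the gate genes, with medians of 112 and 344 UMIs per 10,000, and in depth, with medians of 11509 and 16535 UMIs. Plagl1 itself ran from 0.940 in OBP-like cells with a summed level of 60 to 100 (10 pools) to 0.136 in those at 300 or more (16 pools). The medians of the summed level were 109 and 125 in LMP-like and 60.1 and 49.6 in MALP-like cells, and the part of these differences in the split was not tested. Since the mice of a pool were not separated, differences between mice and between cells of 1 mouse cannot be told apart in this split. How many of all genes were higher or lower in the H19-high cells was not counted, so these counts of pools are no result about the members.

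**Figure D3:**
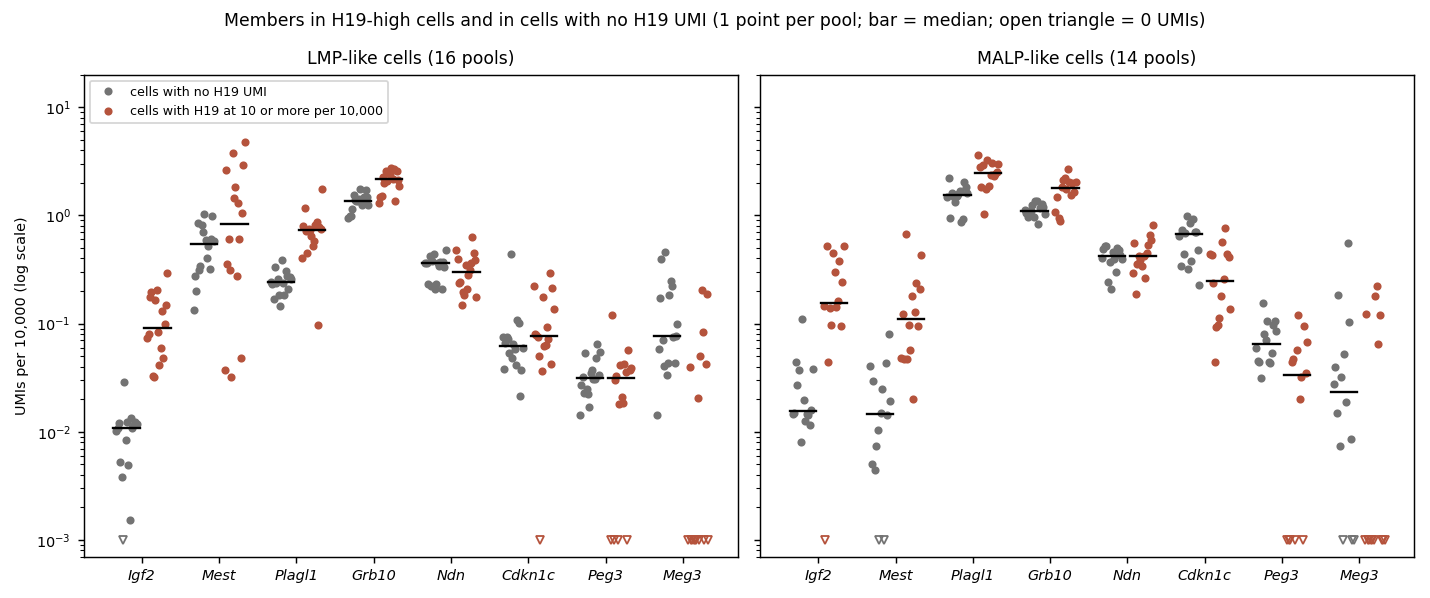
Level of each gene (UMIs per 10,000, log axis) in cells with H19 of at least 10 per 10,000 (red) and in cells of the same class with no H19 UMI (grey), LMP-like on the left and MALP-like on the right, with 1 point for each pool, a bar for the median and open triangles for 0 UMIs. In LMP-like cells Igf2 is higher in the H19-high cells of all 16 pools, and Meg3 is lower in 15 of 16, with no Meg3 UMI in the H19-high cells of 9 of them. The share of all genes that differ in this way was not counted.

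Pools differed far more in some members than in others. The biological coefficient of variation, the spread over pools beyond counting error, was 0.443 for H19 in LMP-like cells, above that of 95.9% of the 10887 genes there, whose median was 0.162. It was 0.876 in MALP-like cells (above 99.8% of 9497 genes), 0.816 in OB-like and 0.945 in Ocy-like cells. The last values rest on low mean levels of H19, 0.148 and 0.165, beside 0.0917 in leukocyte-marked cells. Only 551 of 5135 OB-like and 458 of 4934 Ocy-like cells held an H19 UMI, and the part of free RNA was not tested. Meg3 (0.823) and Mest (0.617) in LMP-like cells and Cdkn1c in MALP-like cells (0.656) were also wide. The coefficient takes out counting error of UMIs only, and 258 of 6744 LMP-like cells held all Meg3 UMIs of that class. How far the choice of cells that entered a pool adds to these values was not tested. For Cdkn1c in MALP-like cells pool 7 stood apart at 3.02 UMIs per 10,000, while the other 15 pools lay between 0.193 and 0.972. Grb10 in MALP-like cells was at 0.0901, below the median gene (0.142), and Plagl1 in LMP-like cells at 0.163 was close to the median. In fold terms the highest pool had 4.66 times the H19 level of the lowest in LMP-like cells and 19.7 times in MALP-like cells, against 2.13 and 1.73 times for Grb10.

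**Figure D4:**
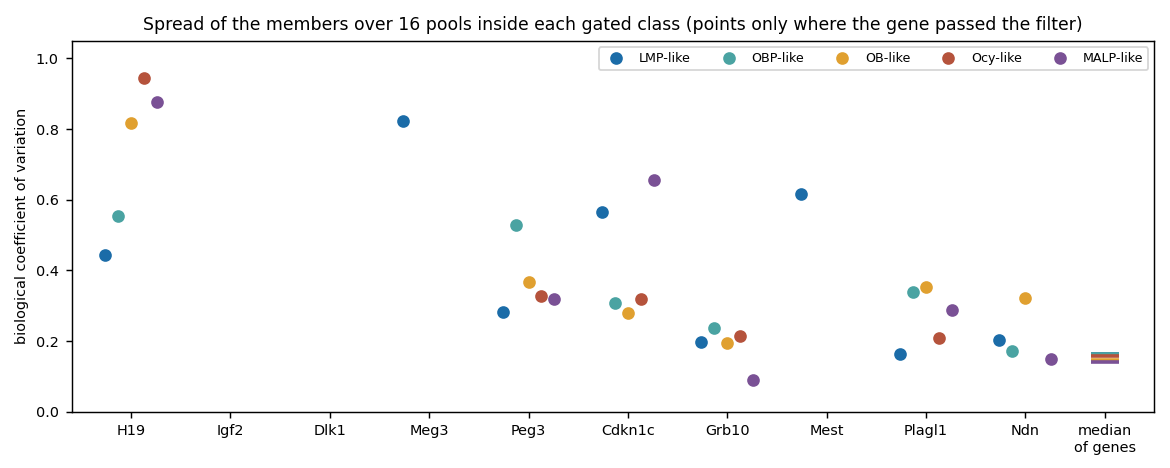
Biological coefficient of variation over pools (vertical axis) of the members in each class (colours), with a point only where the gene passed the low-count filter, beside the median of all genes in each class at the right. H19 lies above the median gene in every class, from 0.443 in LMP-like to 0.945 in Ocy-like cells, and Grb10 lies below it in MALP-like cells (0.0901). The H19 levels behind the OB-like and Ocy-like points were low, at means of 0.148 and 0.165 beside 0.0917 in leukocyte-marked cells.

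Whether the same pools were high in a member in different classes varied with the member. Over 16 pools, H19 in LMP-like and MALP-like cells had a Pearson r of 0.63 (Spearman rho 0.68, and r of 0.65 without the 2 pools furthest from the median) and in OB-like and Ocy-like cells an r of 0.78 (rho 0.82, 0.91 without 2). Ndn in OB-like and Ocy-like cells gave 0.79 (rho 0.84, 0.77 without 2) and Grb10 in LMP-like and MALP-like cells 0.69 (rho 0.64, 0.81 without 2). Grb10 in LMP-like and OBP-like cells gave 0.71 (rho 0.58) and Cdkn1c in LMP-like and MALP-like cells 0.72 (rho 0.35), but these fell to 0.23 and 0.38 without the 2 pools and so rest on them, whereas Plagl1 in LMP-like and MALP-like cells gave 0.12 (rho 0.14). Low values were also those of H19 in OBP-like and OB-like cells (0.30, rho 0.45, 0.18 without 2), of Mest in LMP-like and OBP-like cells (0.18, rho 0.19) and in LMP-like and MALP-like cells (0.19, rho 0.23), and of Cdkn1c in LMP-like and OBP-like cells (-0.11, rho 0.056). Classes of a pool share a library, its mice and its free RNA, so these values describe the pools only.

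Between members within LMP-like cells, 4 of 28 pairs had an r above 0.5 over the 16 pools: H19 with Grb10 (0.73, rho 0.58), Peg3 with Grb10 (0.58, rho 0.56), H19 with Meg3 (0.54, rho 0.55) and Plagl1 with Ndn (0.50, rho 0.60). Without the 2 pools furthest from the median these fell to 0.40, 0.51, 0.44 and 0.32. In OBP-like cells of the same pools they were 0.15, 0.23, 0.098 and 0.52, in the same order. The share of all gene pairs above 0.5 was not computed, so the count is no result about the members. Of the 5548 genes with a mean of at least 20 CPM in LMP-like cells, those most like H19 over pools were Ttyh3 (r = 0.87), Tsc22d3 (0.85) and Dnajc18 (0.82), and those most like Grb10 were Klhl24, Pdk1 and Appl2 (all 0.87). Plagl1 was nearest to Ptgfr (0.83), Dctn1 (0.82) and Tmem63a (0.82), and Ndn to Synj2bp (0.87), Vps29 (0.87) and Wdr61 (0.85). Nearest to Meg3 were Nosip (0.82), Thap3 and Podxl2 (both 0.74), to Peg3 Cmas (0.75), Papss1 (0.74) and Stxbp3 (0.73), to Cdkn1c Apoe (0.78), Rab9 (0.77) and Tmem37 (0.76), and to Mest Ddhd2, Phpt1 and Vps37b (each 0.71). These were the highest of 5548 values each, and library depth is among what the pools share.

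The genes listed next were counted beside the shares of all genes called, which were 28.9% higher and 31.6% lower from LMP-like to OBP-like cells, 31.6% and 32.1% from OBP-like to OB-like cells, 25.9% and 25.6% from OB-like to Ocy-like cells, 37.1% and 36.5% between MALP-like and LMP-like cells and 24.0% and 24.7% in cycling cells. With so few genes in each list, the counts describe the lists and are no result about them. Neighbours in the same imprinted domains mostly had too few UMIs: of 26 listed, 7 or 8 could be tested at each step. Dio3, the deiodinase gene at the end of the Dlk1 domain, fell by 2.43 on the log2 scale from LMP-like to OBP-like cells, beside the fall of Meg3. At that step 4 neighbours were higher and 2 lower, among them Snrpn, a splicing protein gene near Ndn, with -0.78. From OBP-like to OB-like cells 2 were higher and 1 lower, and from OB-like to Ocy-like cells 1 was higher and 1 lower, with Kcnq1ot1, the antisense RNA that silences Cdkn1c on the paternal copy, at 0.20 in the latter. Between MALP-like and LMP-like cells 2 were higher, Kcnq1ot1 (0.49) and Snrpn (0.44), and 3 were lower, Peg12 (-1.19), Cd81 (-0.35) and Tssc4 (-0.18). In cycling LMP-like cells 2 were higher, with Tssc4 at 0.60, and 3 lower, with Snrpn at -0.54. Rian and Nctc1 are among the 26 listed and Peg13 is among the 34 other imprinted genes below, and no values are given for them here.

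Among 34 other imprinted genes, 20 to 23 could be tested. From LMP-like to OBP-like cells 11 were higher and 5 lower (28.9% and 31.6% of all genes), led by Sfmbt2 (1.35), Slc22a3 (-1.14), Tnfrsf23 (0.90), Peg10 (0.89) and Htr2a (0.73). The retrotransposon-derived gene Peg10 rose again to OB-like cells (0.68) and fell to Ocy-like cells (-1.21) and between MALP-like and LMP-like cells (-1.44). In OB-like against OBP-like cells 8 were higher and 8 lower, and Gnas, which codes for the stimulatory G protein alpha subunit, was at 0.65. From OB-like to Ocy-like cells 6 were higher, led by Atp10a (1.64), and 5 lower. Between MALP-like and LMP-like cells 8 were higher and 8 lower, with Tnfrsf23 at -1.89, Slc22a3 at 1.74 and Asb4 at -1.29. In cycling cells 2 were higher and 6 lower. The medians over those tested ran from -0.22 to 0.15 on the log2 scale.

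The genes around the Igf2 signal were counted in the same way. Of 17 receptors, substrates, binding proteins and RNA-binding regulators, 14 could be tested from LMP-like to OBP-like cells, and 3 were higher and 7 lower (28.9% and 31.6% of all genes), led by the binding proteins Igfbp2 (-2.83), Igfbp7 (-1.23) and Igfbp4 (-1.20) and the ligand gene Igf1 (-1.95). From OBP-like to OB-like cells Igfbp5 fell by 4.22 and Igfbp4 by 2.63, and of 10 tested 1 was higher, the receptor substrate gene Irs2 (0.94), and 5 were lower. From OB-like to Ocy-like cells 4 were higher, among them Igf1r (0.22), the receptor gene, and 3 lower. Between MALP-like and LMP-like cells 9 of 14 were higher, led by Igfbp3 (6.84) and Igf1 (2.19), and 3 lower, led by Igfbp6 (-3.31). None of 13 was higher in cycling cells and 8 were lower (24.0% and 24.7% of all genes), with Igfbp3 at -1.43.

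The 6 other CDK inhibitor genes, which like Cdkn1c code for brakes on the cell cycle, moved in both directions. Cdkn2b, which codes for p15, was lower in MALP-like than in LMP-like cells (-2.29), as was Cdkn2a (-1.46), where Cdkn1c was higher, and Cdkn2c was higher (1.43). From OBP-like to OB-like cells Cdkn2b fell by 0.89 and Cdkn1a, which codes for p21, rose by 0.26, while to Ocy-like cells Cdkn2b and Cdkn2a (both 0.61) and Cdkn1a (0.33) rose. In cycling LMP-like cells Cdkn2d (2.29) and Cdkn2c (1.99) were higher and Cdkn2a (-1.36) lower. The counts called were 1 higher and 3 lower, 1 and 3, 3 and 1, 2 and 3, and 3 and 2 of the 6 in the order LMP-like to OBP-like, OBP-like to OB-like, OB-like to Ocy-like, MALP-like against LMP-like and cycling against non-cycling.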

How the data were processed

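Single-cell 3′ libraries of 16 pools of BMSC-OBs were measured, each sequenced in 2 runs. The deposited counts are UMIs per gene and barcode that the authors made with Cell Ranger 5.0.0 on mm10 (GRCm38), not normalized. The 2 runs of a pool shared 98.2% of barcodes, so they read the same droplets, and run HGYVNCCX2 was used, with run HHFFMCCX2 as an alternative. A pool counted as 1 replicate.

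Cells with 400 to 6200 detected genes and at most 10% mitochondrial, 20% Rpl and 15% Rps UMIs were kept (88909 of 107853 barcodes). A neighbour score against simulated doublets removed 5003 cells. Cells with at least 3000 UMIs were gated by sums of marker genes per 10,000 UMIs: leukocyte under 5, granulocyte under 20, T cell under 3, B cell under 20, endothelial under 3, glial under 10, erythroid under 10 and mesenchymal at least 15. A class needed a highest marker z score of at least 0.5 and a lead of at least 0.5 over the next. The marker genes were listed before this scoring, which was set after the values were seen. The marker genes, the 10 genes and the gene lists were chosen with earlier results of these data known.

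UMIs were summed per pool and class (at least 20 cells) and tested with edgeR 4.0.16 in R 4.3.3 (quasi-likelihood test, two-sided, filterByExpr, TMM, class and pool as terms) with Benjamini-Hochberg adjustment over all genes tested; genes under an adjusted p of 0.05 were called. Each comparison was fitted on its own pair of classes. The pool is the block because both classes of a pool come from the same mice and culture, and the deviations of such pairs correlated with a median of 0.403 to 0.501 over comparisons (lowest 0.157), against about -0.03 to -0.02 for different pools. The procedure was tested on simulated data. All 10 genes were named in every comparison, and of each other list the 5 called genes with the largest absolute log2 fold change were eligible. For each member tested in LMP-like cells, the 3 genes with the highest Pearson r of log2(CPM + 10) over pools were named. Alternatives were another run, filter, scaling (DESeq2 1.42.0 or RLE), gate, cell minimum, doublets kept, no pool term and each pool left out; plain library-size scaling was added after seeing the data.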

Additional observations from a re-analysis of the deposited data

How the results depend on the processing

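Of 26 calls of members in the 5 comparisons, all 26 were kept with RLE scaling, DESeq2, no filter on low counts, doublets kept, a minimum of 50 cells or run HHFFMCCX2. The stricter gate kept 24 (it lost Mest in OB-like against OBP-like cells, which was not tested there, and Plagl1 in cycling cells), library-size scaling 25 and the fit without the replicate block 22. Without the block, the pairing of classes by pool, the members called among cycling against non-cycling LMP-like cells fell from 4 to 2; with the block left out Grb10 in Ocy-like against OB-like cells and Meg3 in MALP-like against LMP-like cells were also lost, and no other call changed. With each pool left out in turn, the calls kept were 5 to 5, 6 to 6, 3 to 4, 7 to 7 and 4 to 4 in the order of the report, and calls were gained for Igf2 from LMP-like to OBP-like cells (without pool 5, 6, 9, 10, 11 or 13) and, without pool 6, for Ndn in MALP-like against LMP-like cells and Mest in cycling cells. Pairs of members with an r above 0.5 over pools numbered 4 in LMP-like cells, 2 in OBP-like cells and 3 in LMP-like cells without pool 13; r was under -0.5 for 2 pairs in OBP-like cells (lowest -0.58) and 0 in LMP-like cells, and the median r was 0.066 and 0.25.

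Differences that were not called turned direction in places. Plagl1 between OBP-like and LMP-like cells was 0.022 and became -0.025 with DESeq2, -0.020 without the filter, -0.050 in run HHFFMCCX2 and -0.037 with library-size scaling, and ranged from -0.054 to 0.072 with 1 pool left out, while the stricter gate gave 0.48 and a call. Grb10 there ranged from -0.056 to 0.0041. H19 between Ocy-like and OB-like cells became -0.0029 with DESeq2, and between MALP-like and LMP-like cells 0.15 without the block and 0.084 with library-size scaling. In cycling cells Grb10 became -0.011 without the filter and -0.029 in run HHFFMCCX2, Peg3 0.058 in that run and 0.051 with the stricter gate (range -0.28 to 0.031 with 1 pool left out), and Cdkn1c 0.015 in that run (range -0.18 to 0.030). The causes were not tested. Levels moved by more than 1 SD in 2 of 150 alternative values, H19 (4.21) and Plagl1 (0.375) in LMP-like cells as means over cells. Dlk1, Igf2 and Meg3 had no UMI in several pools of some classes, and the part of depth in this was not tested.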
